A study of Homo sapiens with 12 samples.

Results

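Transcript levels were compared between etoposide and DMSO on the arrays labelled ING2-6K, which hybridised RNA of HT1080 cells, an established human fibrosarcoma line, on Illumina BeadArrays. These are 6 of the 12 arrays of the series and were chosen by their titles: 3 labelled ING2-6K with 100 uM etoposide for 16 h and 3 labelled ING2-6K with the solvent DMSO, numbered 1 to 3 in each group. A different time stands in the text of the study. The cells had been stably transduced to express ING2-6K/Rmt, a form of ING2 whose basic residues in the C-terminal polybasic region were replaced by alanine and which binds the phosphoinositide PtdIns(5)P poorly. Per the study, ectopic expression lowered the endogenous ING2 protein, so by their labels both groups carry the mutant beside reduced endogenous ING2. The other 6 arrays were labelled ING2-WT, from cells transduced with the unaltered protein and given the same etoposide or DMSO treatment, and serve here only to show where the response differed. Separate cultures are not named in the labels, although a legend of the study speaks of biological replicates, so the p-values below rest on how far arrays of a group differed, which may be technical variation alone.

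Etoposide traps topoisomerase II on DNA and leaves double-strand breaks. In cells with working p53, such breaks are known to stabilise p53, which raises CDKN1A, an inhibitor of cyclin-dependent kinases, and MDM2, the ligase that marks p53 for degradation. Cells that have left the cycle are known to lower the transcripts of mitosis and replication, largely through the DREAM repressor complex, which binds CHR elements in promoters of mitotic genes. ING2 is a plant homeodomain finger protein that brings the SIN3-HDAC deacetylase complex to chromatin carrying trimethylated lysine of histone H3.

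The labels were checked against the targeted gene and p53 targets. CDKN1A read 16293, 14970 and 11504 on the DMSO arrays 1 to 3 and 5417, 5896 and 3069 on the etoposide arrays. MDM2 read 213, 206 and 250 with DMSO and 105, 93.5 and 48.7 with etoposide. Both genes were thus lower on every array labelled etoposide than on every array labelled DMSO, which is opposite to the known response to etoposide. ING2 itself read 556, 502 and 140 on the DMSO arrays and 11846, 8853 and 206 on the etoposide arrays. A further ING2 probe gave the same order, with 430, 366 and 112 against 21056, 20293 and 119. On the 6 arrays labelled ING2-WT the main ING2 probe read between 174 and 650, so only etoposide arrays 1 and 2 labelled ING2-6K carried a high ING2 signal. Which part of the transcript either probe reads is not given in the sources used here. The ING2 signal thus did not set the other 4 arrays labelled ING2-6K apart from those labelled ING2-WT. Whether any label is exchanged was not tested. The groups are kept as labelled throughout, and every direction given here holds only for the labels as they stand.

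Arrays numbered 3 also stood apart. Log2 values of arrays 1 and 2 of a group correlated across genes with r of 0.977 to 0.979, and array 3 with either of them with r of 0.886 to 0.948. Of 20 mesenchymal markers 16 were measured, 12 of them at an intensity of 64 or more on all 6 arrays, with a summed level of 34212 to 43256 with DMSO and 40667 to 51690 with etoposide. Of 20 epithelial markers 5 were measured, with sums of 833 to 1342 and 1301 to 1750. Of 20 blood and endothelial markers 6 were measured, with sums of 4593 to 6401 and 3378 to 4865, mostly from CD68, which many cell types express. No member of the 3 marker lists passed the test on the arrays labelled ING2-6K. Once the arrays numbered 3 were left out, 5 of 14 mesenchymal markers and 1 of 3 epithelial markers were higher, against 18.8% of all genes. In the test of the difference from the arrays labelled ING2-WT, 2 of the 6 blood and endothelial markers passed, both lower under ING2-6K. Over all genes 2.65% passed with the lower effect under ING2-6K. The part of these markers in the results below was not tested.

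Genes of cell division were higher on the arrays labelled etoposide, and a small set with several p53 targets was lower. Of 11443 genes, 186 were called changed (1.63%), 169 higher (1.48%) and 17 lower (0.149%), where a call is an adjusted p under 0.05 in limma with Benjamini-Hochberg adjustment. Each of the 169 and of the 17 moved the same way in all 3 same-numbered pairs, and in none of them did the groups overlap. Over all genes the groups did not overlap for 19.2%, with etoposide higher for 9.55% and lower for 9.67%. Of the 169, 97 reached an intensity of 64 on at least 1 array of both groups, with folds of 2.17 to 54.5 and a median of 5.0. In the other 72 the 3 DMSO arrays all lay under 64. Their folds are given as bounds ("at least"), taking 64 as the lowest level that counts as measured. Within the groups compared, these 72 genes could reach 64 only with etoposide. An adjusted p printed beside a bound comes from the fit with a floor of 16 and is not a test of the bound. With a floor of 64, 163 of the 186 genes were called in the same direction. Of the 169, 108 belonged to lists of the cell cycle or repair, 4 to other lists and 57 to none. Of the 11443 genes tested, 228 belonged to the cell cycle or repair lists and 983 to any list. The lists were chosen with earlier results of these data known.

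The count of calls depended on single arrays. With 1 array of the ING2-6K label left out, and thus fewer arrays in its group, the count varied. It was 109 without DMSO array 1, 107 without etoposide array 1, 113 without DMSO array 2 and 113 without etoposide array 2. It was 114 without etoposide array 3 and 204 without DMSO array 3, against 186 with all arrays. Leaving out all 4 arrays numbered 3, of both labels, raised it to 4112 of 10720 genes (38.4%), 2017 higher (18.8%) and 2095 lower (19.5%). Only arrays 1 and 2 of each group remain there. Every p-value and call given without the arrays numbered 3 thus rests on how far those arrays differed, which may be technical variation alone. Of the 186 genes, 185 were still tested in that setting and all 185 were called in the same direction.

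**Figure D1:**
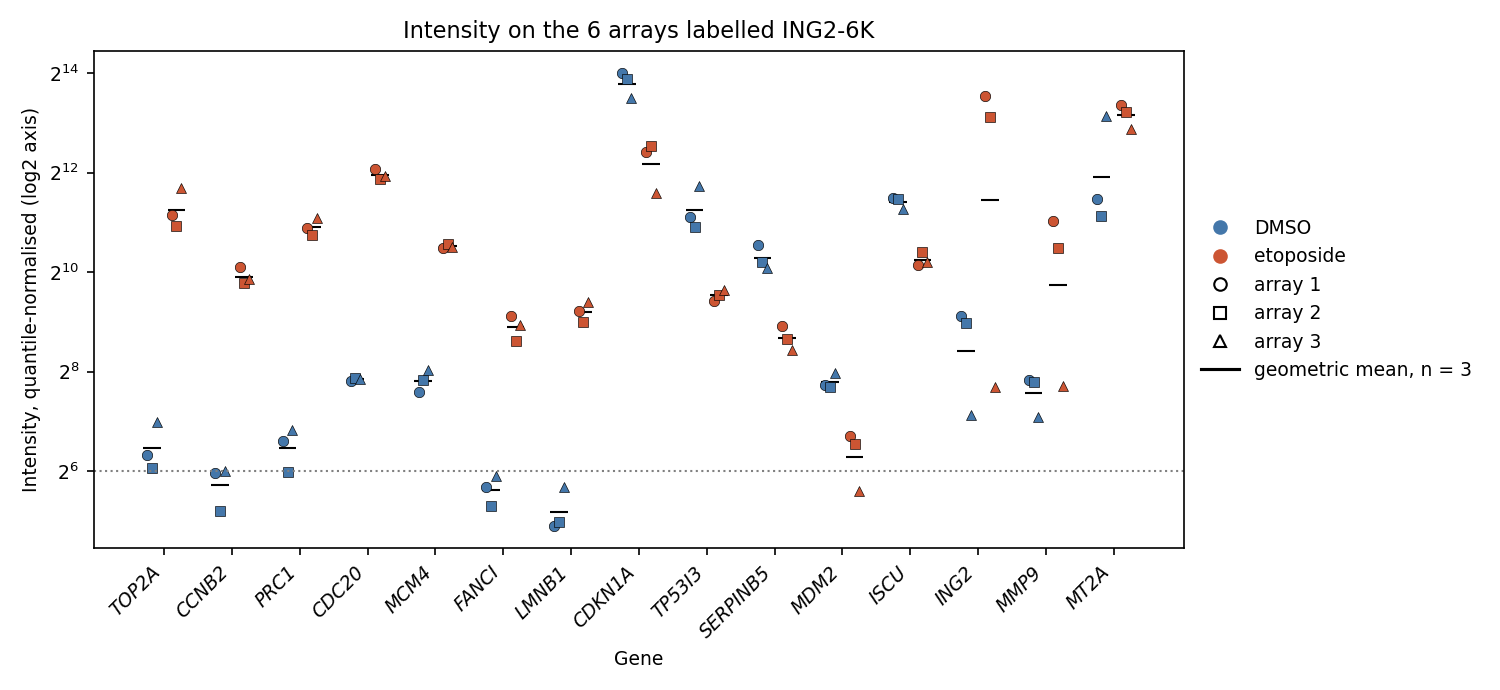
Quantile-normalised intensity (log2 axis) of 15 genes on the 6 arrays labelled ING2-6K, with DMSO in blue, etoposide in orange, a marker shape for each array number and a bar for the geometric mean (n = 3). TOP2A, CCNB2, PRC1, CDC20, MCM4, FANCI and LMNB1 lie higher on all etoposide arrays and CDKN1A, TP53I3, SERPINB5, MDM2 and ISCU lower, while ING2, MMP9 and MT2A separate on arrays 1 and 2 but not on arrays 3. The dotted line marks an intensity of 64.

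Among the kinases and cyclins that start mitosis, 15 of 21 measured genes rose and 0 fell, with a median log2 change of 2.89, or 1.91 with bounds in place of the floor-limited values. The median over all 11443 genes was -0.03. In RNA of whole cultures, fewer cells in a phase and less RNA per cell cannot be told apart. CCNB2, a B-type cyclin that activates CDK1, read 62.1, 36.8 and 64.2 with DMSO and 1100, 874 and 924 with etoposide. The groups lay far apart, a rise of 18.2-fold (log2 4.19, SE 0.34, adjusted p = 7.91e-05). CCNF, a cyclin and F-box protein, read 145, 92.7 and 151 against 996, 848 and 978, or 7.41-fold higher (adjusted p = 0.000194). PBK, a mitotic kinase, was under 64 on all DMSO arrays and read 678, 512 and 713 with etoposide, at least 9.81-fold higher. Its adjusted p of 7.91e-05 belongs to the change with the floor of 16 (log2 4.81), not to the bound. PKMYT1, which holds CDK1 inactive until mitosis, was at least 3.18-fold higher (adjusted p = 0.000194).

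The chromosomal passenger complex, which corrects the attachment of chromosomes to the spindle, had 3 of 4 members higher and 0 lower, with a median of 4.11 (2.98 with bounds). BIRC5, its survivin subunit, read 51.9, 47.2 and 51.9 with DMSO and 1130, 1111 and 794 with etoposide, at least 15.6-fold higher (adjusted p = 0.000685). AURKB, its kinase, read 593, 705 and 564 with etoposide and stayed under 64 with DMSO (adjusted p = 0.00145). CDCA8, its borealin subunit, was at least 6.41-fold higher (adjusted p = 0.00148). INCENP, the scaffold, did not pass, with 57.3, 57.1 and 130 against 316, 297 and 325 (log2 2.05, SE 0.48, adjusted p = 0.0643), although its groups did not overlap.

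Spindle motors and spindle-associated proteins were the list with the highest share of calls: 25 of 26 rose and 0 fell, with a median of 3.38 (2.70 with bounds). ASPM, a spindle pole protein, read 18, 26.2 and 85.2 with DMSO and 1880, 1454 and 2381 with etoposide. With the floor of 16 this was the largest log2 change of all genes tested (5.77, SE 0.57, adjusted p = 0.000214), but with a floor of 64 it was 4.73, below the 4.79 of TOP2A. PRC1, which bundles the microtubules of the central spindle, read 97.4, 62.9 and 114 against 1903, 1721 and 2172, a rise of 21.7-fold (log2 4.44, SE 0.32, adjusted p = 4.32e-05). KIF20A, a kinesin needed for cytokinesis, went from 86.4, 67.4 and 95.9 to 1072, 971 and 1295, or 13.4-fold (adjusted p = 4.32e-05). KIFC1, a minus-end kinesin, rose 17.3-fold (adjusted p = 7.91e-05). KIF11, which pushes spindle poles apart, rose at least 10.4-fold (adjusted p = 0.000213), DLGAP5, a spindle assembly factor, at least 9.61-fold (adjusted p = 4.32e-05), and KIF4A at least 3.72-fold (adjusted p = 7.91e-05).

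At the kinetochore and the spindle checkpoint, 18 of 36 genes rose and 0 fell, with a median of 2.02 (1.34 with bounds). CENPF, a kinetochore protein, was at least 14-fold higher (adjusted p = 0.00139) and read 731, 591 and 1672 with etoposide. BUB1, a checkpoint kinase, read 54.3, 30.9 and 55.6 against 636, 553 and 984, at least 11-fold higher (adjusted p = 0.00102). HJURP, which loads the centromeric histone, was at least 10.0-fold higher (adjusted p = 0.000372). NUF2, a subunit of the NDC80 complex, was at least 3.22-fold higher (adjusted p = 0.000194).

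Among condensins, cohesins and their partners, 6 of 19 rose and 0 fell, with a median of 0.90. NCAPG, a condensin subunit, had the smallest adjusted p of all genes (1.95e-05), with 47.2, 41.0 and 59.1 on the DMSO arrays against 1146, 1086 and 1067, at least 17.2-fold higher. TOP2A, the topoisomerase that etoposide traps and that is listed here with condensin, read 79.9, 67.1 and 127 against 2256, 1937 and 3319, a rise of 27.7-fold (log2 4.79, SE 0.40, adjusted p = 9.41e-05). SMC4, the ATPase of condensin, went from 637, 647 and 589 to 3525, 2916 and 3787 (5.43-fold, adjusted p = 0.000372). CDCA5, the sororin that protects cohesin, rose 8.91-fold (adjusted p = 0.000667).

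Among genes of the anaphase-promoting complex and mitotic exit, 2 of 14 rose (14.3%, against 1.48% of all genes) and 0 fell, with a median of 0.21. The 2 were CDC20, its mitotic activator, and UBE2C, the ubiquitin-conjugating enzyme that works with it. CDC20 read 223, 234 and 232 with DMSO and 4277, 3727 and 3877 with etoposide, a rise of 17.2-fold (adjusted p = 0.000203), and the spread within each group was small against that gap. UBE2C went from 181, 170 and 85.5 to 2190, 2169 and 1574 (14.2-fold, adjusted p = 0.0019). FBXO5, the EMI1 inhibitor of the complex, read 123, 139 and 99.2 against 516, 564 and 537 and did not pass (log2 2.17, SE 0.49, adjusted p = 0.0552). ESPL1, the separase that opens cohesin, had a log2 change of 1.13 (SE 0.34, adjusted p = 0.201).

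Promoter sequences of 4 of these genes are shown because the genes moved together and stand in different lists. They are the 250 bases before the RefSeq start (build GRCh38.p14), 5′ to 3′ on the strand of the gene, with CHR elements (TTTGAA, or TTCAAA on the other strand) and CCAAT boxes (CCAAT, or ATTGG on the other strand) in capitals. CCNB2 lies at chr15:59104896-59105145 (+ strand), PRC1 at chr15:90994536-90994785 (- strand), CDC20 at chr1:43358731-43358980 (+ strand) and TOP2A at chr17:40417897-40418146 (- strand).
CCNB2: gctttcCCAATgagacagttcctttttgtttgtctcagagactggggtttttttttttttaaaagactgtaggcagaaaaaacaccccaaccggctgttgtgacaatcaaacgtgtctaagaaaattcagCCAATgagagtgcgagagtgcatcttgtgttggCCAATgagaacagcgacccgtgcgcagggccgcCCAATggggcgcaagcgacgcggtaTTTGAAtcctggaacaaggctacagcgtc
PRC1: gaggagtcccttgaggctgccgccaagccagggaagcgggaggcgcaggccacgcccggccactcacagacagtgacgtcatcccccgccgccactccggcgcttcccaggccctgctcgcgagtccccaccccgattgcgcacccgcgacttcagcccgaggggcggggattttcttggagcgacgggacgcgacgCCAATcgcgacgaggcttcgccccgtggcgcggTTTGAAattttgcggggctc
CDC20: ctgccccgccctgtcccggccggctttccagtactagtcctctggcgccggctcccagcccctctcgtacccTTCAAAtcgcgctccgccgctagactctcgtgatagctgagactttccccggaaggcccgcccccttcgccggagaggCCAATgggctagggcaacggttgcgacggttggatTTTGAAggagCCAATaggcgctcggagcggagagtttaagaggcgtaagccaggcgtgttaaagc
TOP2A: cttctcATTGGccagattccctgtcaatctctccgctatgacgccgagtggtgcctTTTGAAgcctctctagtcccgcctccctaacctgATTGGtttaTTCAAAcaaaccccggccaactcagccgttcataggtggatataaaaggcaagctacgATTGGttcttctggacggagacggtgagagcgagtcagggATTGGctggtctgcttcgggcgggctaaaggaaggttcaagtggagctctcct
In CCNB2 the TTTGAA begins 29 bases before the start and CCAAT boxes begin 54, 87, 120 and 244 bases before it. PRC1 holds 1 of each, at 20 and 53 bases. CDC20 holds TTTGAA at 65 and TTCAAA at 178 bases, with CCAAT at 55 and 100. In TOP2A the CCAAT boxes all read ATTGG, at 53, 93, 160 and 244 bases, with TTCAAA at 151 and TTTGAA at 194.

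A promoter was matched for 139 of the 169 genes called higher. A CHR element on either strand was present in 25.2% of them, in 39.0% of the 100 matched genes of the mitosis lists, in 8.53% of the 8386 matched genes among all tested and in 13.6% of 27305 promoters of the same length. A CCAAT box was present in 60.4% of those called higher, in 63.0% of the mitosis lists, in 36.0% of genes tested and in 33.0% of all promoters. Both were present in 21.6%, 30.0%, 3.63% and 4.85%. The 4 windows shown all hold both, so they do not stand for the genes called higher as a whole. An E2F site, searched as TTCCCGCC or GGCGGGAA, was present in 10.8%, 11%, 4.84% and 2.77%. Of the 13 genes called lower that were matched, 1 held a CHR element and 3 a CCAAT box. TTTGAA and TTCAAA are reverse complements and were counted as 1 motif, and a CHR element and a CCAAT box can share a base, which none does in the 4 windows shown. These matches describe the letters of the windows, not bound sites.

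Genes that prepare and copy DNA were higher too. Of 24 genes of origin licensing and the replicative helicase, 10 rose and 0 fell, with a median of 1.64. MCM4, a helicase subunit, read 193, 226 and 260 with DMSO and 1439, 1506 and 1446 with etoposide (6.50-fold, log2 2.70, SE 0.24, adjusted p = 0.000157). MCM2 went from 79.2, 57.9 and 113 to 705, 673 and 651 (8.42-fold, adjusted p = 0.000194), and MCM6 from 363, 383 and 338 to 2089, 1668 and 2553 (5.74-fold, adjusted p = 0.000214). CDC45, which joins MCM in the active helicase, rose 7.88-fold (adjusted p = 0.000194). The values of these 4 genes on the etoposide arrays all lay above those on the DMSO arrays.

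Of 32 genes of the replication fork and nucleotide supply, 14 rose and 0 fell, with a median of 1.49. FEN1, the flap endonuclease, read 903, 848 and 653 against 3503, 3109 and 3883 (4.39-fold, adjusted p = 0.000671). RRM1, the large subunit of ribonucleotide reductase, rose 3.94-fold (adjusted p = 0.00256), POLE, the leading-strand polymerase, 6.53-fold (adjusted p = 0.00294) and CHTF18, a clamp loader subunit, at least 3.30-fold (adjusted p = 0.00224). Of 24 genes of the E2F and RB proteins and the cyclins of the G1/S transition, 4 rose and 0 fell, with a median of 0.21. They were CCNE2, a cyclin E (60.0 ± 13.7 against 293 ± 82.0, SD, n = 3, adjusted p = 0.0202), E2F2, an activating E2F (at least 1.88-fold, adjusted p = 0.0308), RBL1, the p107 pocket protein (at least 1.24-fold, adjusted p = 0.0286), and CDKN1B. CDKN1B encodes p27, an inhibitor of cyclin-dependent kinases, so it does not act with the list's activators. It read 198, 245 and 243 against 517, 484 and 480 (2.17-fold, adjusted p = 0.031). A further CDKN1B probe did not pass where every probe was tested (log2 0.54, adjusted p = 0.68). SKP2, which targets p27 for degradation, read 313, 438 and 254 against 1261, 1038 and 653 and did not pass (log2 1.54, SE 0.40, adjusted p = 0.115).

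In homologous recombination and Fanconi repair, 11 of 28 genes rose and 0 fell, with a median of 1.71 (1.09 with bounds). FANCI, which forms a DNA clamp with FANCD2 in crosslink repair, read 51.1, 39.6 and 59.8 against 557, 391 and 487, at least 7.40-fold higher (adjusted p = 7.91e-05). POLQ, the polymerase of microhomology end joining, went from 69.4, 38.7 and 89.6 to 609, 649 and 754 (10.7-fold, adjusted p = 0.000194). XRCC3, a recombination protein, was at least 2.45-fold higher (adjusted p = 0.00176). Of 13 genes of the nuclear lamina and its partners, 2 rose, LMNB1 and TMPO. LMNB1, lamin B1, read 30.0, 31.3 and 51.0 against 594, 510 and 674, at least 9.20-fold higher (adjusted p = 9.41e-05). TMPO, which encodes the lamina-associated polypeptide, was at least 3.16-fold higher (adjusted p = 0.0357). LMNB2 read 1194, 1381 and 1207 against 2882, 2607 and 2595 (log2 1.10, SE 0.24, adjusted p = 0.0506).

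Outside the lists, 57 genes rose, and those named here were picked after their values were seen. UHRF1, which maintains DNA methylation at replication forks, read 194, 268 and 409 against 1979, 1850 and 2506 (7.56-fold, adjusted p = 0.000637). HMGB2, a chromatin protein, went from 292, 333 and 279 to 2979, 2620 and 1764 (7.98-fold, adjusted p = 0.000671). EZH2, the methyltransferase of Polycomb repressive complex 2, rose 5.78-fold (adjusted p = 0.0494), and SLFN11, which blocks stressed replication forks, 5.07-fold (adjusted p = 0.0359). DHRS2, a mitochondrial reductase, was bright in both groups, with 7149, 5973 and 4970 against 16293, 15152 and 17289 (2.72-fold, adjusted p = 0.00744). A probe that the file names CDC2 rose 12-fold (adjusted p = 0.0157). Several current genes share that symbol, so the probe was assigned to none of them and no list counts it. Its place outside the lists thus comes from its name. FAM83D, a spindle protein, was at least 5.65-fold higher (adjusted p = 0.000613) and DTL, the CDT2 adaptor of a ubiquitin ligase, at least 3.80-fold (adjusted p = 0.00768).

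Of the 17 genes called lower, 4 were p53 targets, out of 43 measured (9.3%, against 0.149% of all genes). No p53 target was higher, and the list median was -0.65. Further probes of 3 of the 4 did not pass where every probe was tested. They were those of CDKN1A (log2 -1.62, adjusted p = 0.675), TP53I3 (-0.32, adjusted p = 0.899) and KITLG (-0.85, adjusted p = 0.806). CDKN1A was 14256 ± 2473 with DMSO and 4794 ± 1513 with etoposide (SD, n = 3; log2 -1.61, SE 0.31, adjusted p = 0.0208). TP53I3, a p53-induced oxidoreductase, read 2207, 1931 and 3399 against 687, 739 and 794 (log2 -1.72, adjusted p = 0.0344). SERPINB5, the serpin maspin, read 1484, 1179 and 1089 against 483, 401 and 347 (log2 -1.61, adjusted p = 0.0132). KITLG, the ligand of the KIT receptor, read 404, 400 and 471 against 167, 155 and 144 (log2 -1.45, adjusted p = 0.0189). MDM2 did not pass over all arrays (log2 -1.51, SE 0.38, adjusted p = 0.0995), nor did BTG2, an antiproliferative p53 target (log2 -1.72, SE 0.44, adjusted p = 0.0995). Without the arrays numbered 3, which leaves arrays 1 and 2 of each group, both passed. MDM2 was then at -1.09 (adjusted p = 0.00719), a smaller change than over all arrays, and BTG2 at -1.88 (adjusted p = 0.0017). In that setting 23 of 41 measured p53 targets were lower and 1 higher, against 19.5% lower and 18.8% higher over all genes. BTG2 is also an immediate early gene and SERPINB5 also a protease inhibitor, and each is counted in both of its lists.

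The other 13 genes called lower came from several functions. Mitochondrial genes among them were ISCU, the scaffold for iron-sulfur clusters, ETFDH, which passes electrons from fatty acid oxidation to ubiquinone, and SLC25A20, the carnitine carrier. ISCU read 2880, 2850 and 2480 against 1124, 1346 and 1173 (log2 -1.17, adjusted p = 0.0451), ETFDH changed by -1.16 (adjusted p = 0.0427) and SLC25A20 by -1.57 (adjusted p = 0.0498). Of its 3 probes another changed by 1.03, so the probes of SLC25A20 disagree in direction. IFIT3, an interferon-induced protein, read 267, 220 and 508 against 56.0, 90.5 and 62.6 (log2 -2.19, adjusted p = 0.0201). A further IFIT3 probe did not pass where every probe was tested (log2 -1.77, adjusted p = 0.456). RHOB, a stress-induced GTPase, read 1151, 1186 and 1080 against 560, 544 and 394 (log2 -1.21, adjusted p = 0.0476). TINF2, the TIN2 subunit of shelterin at telomeres, had the largest fitted fall (log2 -2.61, SE 0.57, adjusted p = 0.0454), with 1181, 1207 and 213 on the DMSO arrays and 111, 108 and 110 on the etoposide arrays. Its DMSO array 3 thus lay nearest to the etoposide level. GALR2, a galanin receptor, was at least 2.07-fold lower (adjusted p = 0.021) and SPINK1, a trypsin inhibitor, at least 1.04-fold lower (adjusted p = 0.0298). The remaining 5 were YPEL3 (log2 -1.42), SDSL (-1.42), BCDIN3D (-1.28), and the probes the file names DKFZp686D0972 (-2.03) and FLJ25404 (at least 1.59-fold lower), with adjusted p between 0.0253 and 0.0472.

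The calls of lower genes were few and rested on single arrays. Their number was 0 without DMSO array 1 or without etoposide array 3 of the ING2-6K label. It was 5 without etoposide array 1, 2 without DMSO array 2, 2 without etoposide array 2 and 21 without DMSO array 3 of that label. With 1 array of the ING2-WT label left out, the scaling, the filter and the shared estimate of the spread were all made anew. The number was then 7 without ING2-WT DMSO array 1 and 9 without ING2-WT etoposide array 1, DMSO array 2 or etoposide array 2. It was 35 without ING2-WT DMSO array 3 and 45 without ING2-WT etoposide array 3.

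Lists of stress, immune and histone genes held few calls over all arrays. Of 17 replication-dependent histone genes measured 0 were called, with a median of -1.05. With arrays numbered 3 left out, 10 of 16 were lower (62.5%, against 19.5% of all genes) and 1 higher. H2AC18 read 2986, 3017 and 2432 against 1493, 1435 and 619 (log2 -1.35, SE 0.34, adjusted p = 0.0914), and H2AC20 had a log2 change of -1.29 (adjusted p = 0.186). Members of this family are near-identical copies, so probes may read more than 1 of them. Of 40 interferon-stimulated genes, 1 fell, IFIT3, and 0 rose, with a median of -0.62. With arrays numbered 3 left out, 10 of 36 were lower (27.8%, against 19.5% of all genes) and 1 higher. ISG15 read 477, 793 and 2054 with DMSO and 346, 417 and 166 with etoposide (log2 -1.67, SE 0.49, adjusted p = 0.19), and its widest gap was on arrays 3. IFIT1 and IFI27 were likewise highest on DMSO array 3, at 1505 and 3683, with adjusted p of 0.226 and 0.259.

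Of 20 NF-kB and inflammatory genes 0 were called, with a median of -0.10. Of these, 6 had a log2 change above 0 and 14 below. PTGS2, cyclooxygenase-2, had a log2 change of 2.35 (SE 0.91, adjusted p = 0.404), and SOD2, mitochondrial superoxide dismutase, one of -1.35 (SE 0.37, adjusted p = 0.134). Of 21 NRF2 genes 0 were called, with a median of -0.29 and AKR1B10, an aldo-keto reductase, at -2.04 (SE 0.57, adjusted p = 0.155). Of 26 immediate early genes 1 fell, RHOB, and the median was -0.32. Of 27 genes of the ATF4 and unfolded protein response 0 were called (median 0.13), and of 18 heat shock chaperones 0 (median -0.26). No member was called in the BCL2 family (15 measured, median 0.02), in the ING and SIN3-HDAC family (19, median 0.19) or among phosphoinositide kinases and phosphatases (32, median -0.14). The last list includes PIP4K2C, a kinase that uses PtdIns(5)P, which read 359, 369 and 268 against 169, 135 and 165 (log2 -1.08, SE 0.28, adjusted p = 0.118).

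Several metabolic and housekeeping lists had medians away from that of all genes without a call. For cholesterol synthesis the median was 0.73 over 24 genes, 21 of them above 0. For glycolysis the median was 0.55 over 20 genes, 18 above 0, with ENO1, an enolase, at 0.76 (SE 0.29, adjusted p = 0.381). For the hypoxia response it was 0.60 over 15 genes, for splicing factors 0.27 over 41, for proteasome subunits -0.19 over 31 and for cytosolic ribosomal proteins -0.31 over 76, 10 of them above 0. GAPDH read 15597, 16474 and 11179 against 23164, 17610 and 14672 (log2 0.35, SE 0.47, adjusted p = 0.844). Without the arrays numbered 3, 14 of 24 cholesterol genes were higher and 2 lower, and 35 of 76 ribosomal protein genes were lower and 1 higher, against 18.8% higher and 19.5% lower over all genes.

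**Figure D2:**
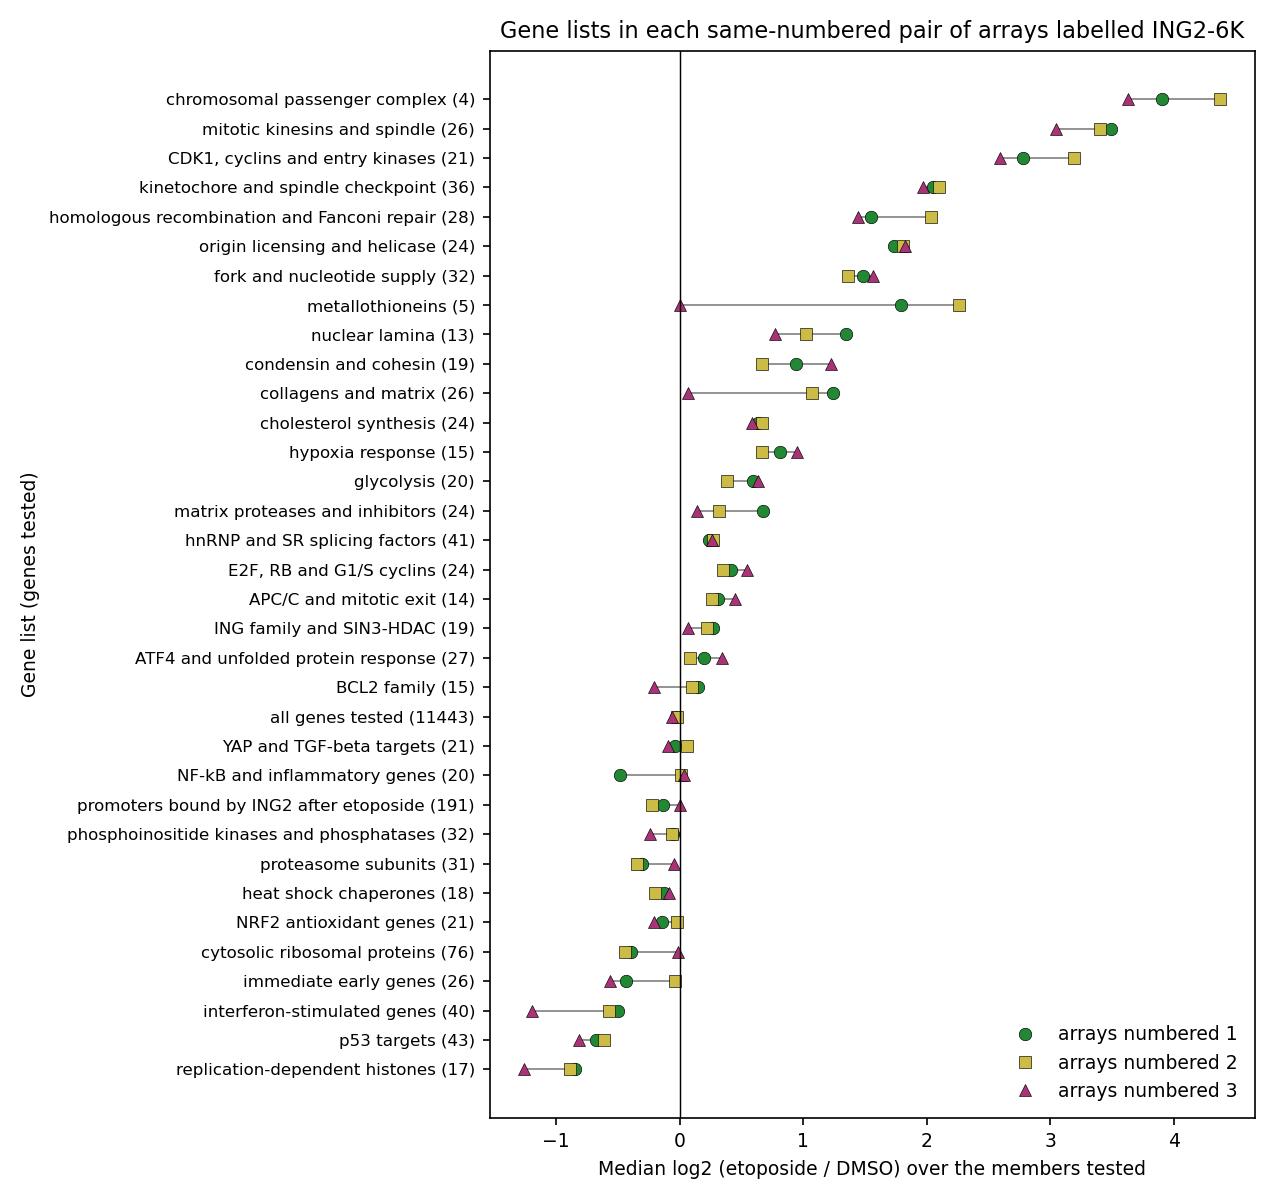
Median log2 ratio of etoposide to DMSO over the tested members of each gene list (number in brackets) for arrays numbered 1 (circles), 2 (squares) and 3 (triangles), with a line spanning the 3 values. The lists of mitosis, replication and repair lie above 0 in all 3 pairs and p53 targets and histones below, while metallothioneins and collagens sit near 0 only for arrays 3.

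Pair by pair, the cell division genes moved by like amounts, and other lists did not all do so. Across genes, the log2 changes of pairs 1 and 2 correlated with r of 0.743, pairs 1 and 3 with r of 0.353 and pairs 2 and 3 with r of 0.159. These are correlations over 11443 genes, which are not independent replicates. A change of 1 or more was seen for 1287 genes up and 774 down in pair 1, 1688 and 919 in pair 2, and 902 and 934 in pair 3. The same direction in all 3 pairs was seen for 375 genes (3.28%), 294 up (2.57%) and 81 down (0.708%). The median over spindle motors was 3.49, 3.41 and 3.05 in pairs 1 to 3, that over helicase genes 1.74, 1.81 and 1.83, and that over p53 targets -0.67, -0.61 and -0.81. Without the arrays numbered 3, 20 of 21 entry kinases and cyclins, 25 of 26 spindle genes, 24 of 35 kinetochore genes, 17 of 23 helicase genes and 17 of 28 repair genes were higher. In that setting 18.8% of all genes were higher and 19.5% lower.

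Metallothioneins, small proteins that bind zinc and copper, differed between pairs. The median of the 5 measured was 1.79 and 2.26 in pairs 1 and 2 and 0.01 in pair 3, and 0 of 5 were called. MT2A read 2842 and 2226 on DMSO arrays 1 and 2 but 9051 on DMSO array 3, close to the 10515, 9579 and 7545 of the etoposide arrays. MT1E read 311 and 287 with DMSO on arrays 1 and 2, 1166 on array 3, and 2283, 1784 and 1457 with etoposide. Without the arrays numbered 3 all 5 passed as higher, MT2A at log2 2.03 (adjusted p = 0.00102) and MT1E at 2.76 (adjusted p = 0.000324). Of all genes 18.8% were higher in that setting. Metallothioneins are close copies of one another, so probes may read more than 1 of them.

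Collagens and other matrix genes showed the same split. Their median was 1.24 and 1.07 in pairs 1 and 2 and 0.07 in pair 3 over 26 genes, 0 of them called. FBN2, fibrillin-2, read 150, 176 and 915 with DMSO and 1194, 742 and 1512 with etoposide (log2 1.93, SE 0.78, adjusted p = 0.431). COL4A2, a basement membrane collagen chain, read 630, 685 and 2016 against 2036, 2177 and 1759, so that its DMSO array 3 lay within the etoposide values. Without the arrays numbered 3, 15 of 22 matrix genes were higher and 0 lower, against 18.8% higher and 19.5% lower over all genes. MMP9, a gelatinase, separated on the same arrays as ING2. It read 227, 223 and 136 against 2092, 1423 and 209, and its log2 changes were 3.20, 2.67 and 0.62 in pairs 1 to 3.

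Over all genes, 2961 had a change in pair 3 at least 1 apart from the mean of pairs 1 and 2. Among the 10 with the widest gap on the scale with a floor of 16 were ADM, the vasodilator adrenomedullin, PNCK, a calmodulin-dependent kinase, and NEAT1, the RNA scaffold of paraspeckles. ADM read 17.5, 16 and 97.1 with DMSO and 177, 158 and 36.7 with etoposide. PNCK read 26.9, 23.3 and 81.2 against 304, 176 and 30.7. All 3 genes were under 64 on DMSO arrays 1 and 2 and on etoposide array 3 and above 64 on the other arrays, so the size of these gaps depends on the floor.

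**Figure D3:**
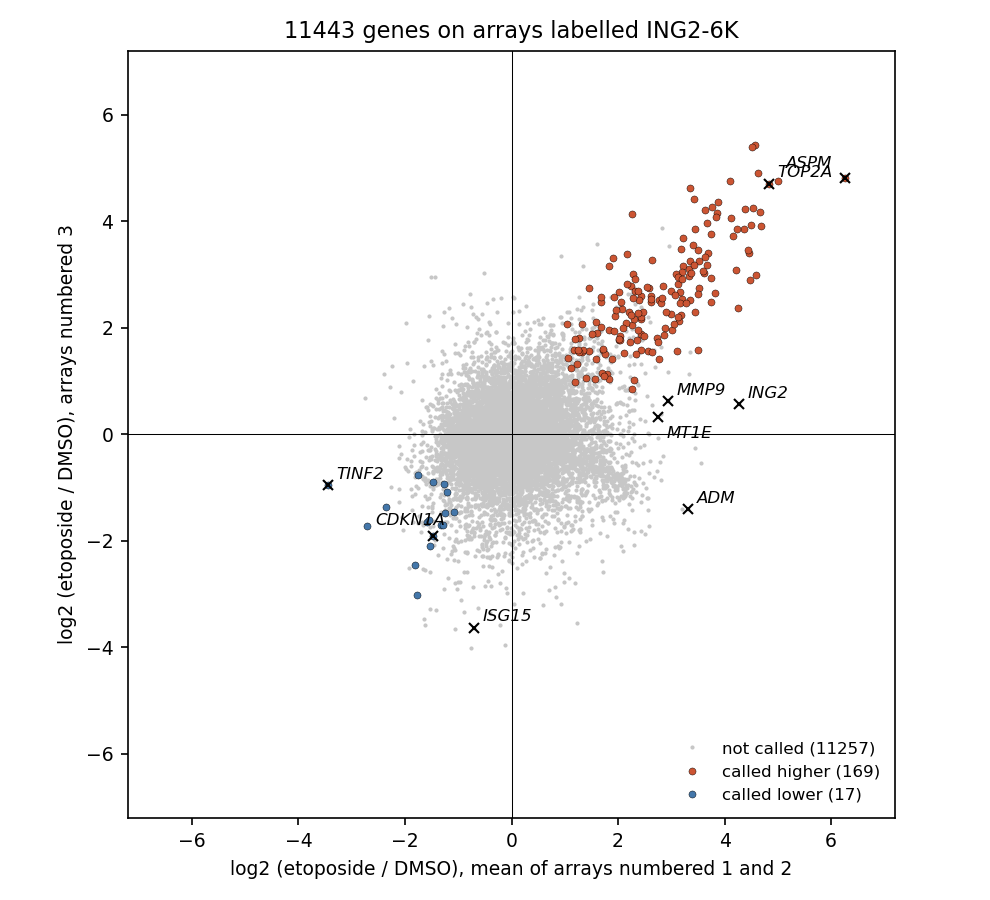
Log2 ratio of etoposide to DMSO on arrays numbered 3 against the mean ratio of arrays numbered 1 and 2, for 11443 genes on arrays labelled ING2-6K. The 169 genes called higher (orange) and 17 called lower (blue) keep their direction on both axes, whereas ING2, MMP9, MT1E and ADM are high on the horizontal axis only, ADM with DMSO values near the floor of 16.

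Some genes moved by 1 or more in all 3 pairs without passing the test: 200 genes, 132 up and 68 down. Of the 10 with the largest mean change, all up, several belong to the cell cycle. CDKN3, a phosphatase of CDKs, read 70.2, 70.8 and 25.7 against 551, 546 and 296 (log2 3.15, SE 0.70, adjusted p = 0.0506). TK1, thymidine kinase, read 64.9, 43.7 and 139 against 528, 565 and 407 (log2 2.76, SE 0.86, adjusted p = 0.233). MKI67, the Ki-67 antigen, was at the floor of 16 on all DMSO arrays and read 92.8, 79.7 and 84.0 with etoposide, at least 1.33-fold higher (adjusted p = 0.0659). CDC25A, the phosphatase that activates CDK2, ASF1B, a histone chaperone, RAD54L, a recombination translocase, and PRR11 had adjusted p between 0.0613 and 0.0833. The other 3 were GJB2, a gap junction connexin, LRIG1, which restrains growth factor receptors, and SLC43A3, a nucleobase transporter. GJB2 read 71.8, 80.9 and 150 against 783, 370 and 2198 (log2 3.17, SE 1.00, adjusted p = 0.243), LRIG1 255, 313 and 944 against 1834, 1522 and 4352 (log2 2.44, adjusted p = 0.383).

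Genes whose promoters carried ING2 in etoposide-treated cells, per the study, were examined as a list, since the mutant asks whether PtdIns(5)P binding matters for such genes. They came from chromatin immunoprecipitation of tagged wild-type ING2 on promoter arrays, at an earlier time after etoposide, not from the expression arrays. Binding in cells with the mutant is not implied. The study did not find the mutant bound at the CIP2A promoter but did find it at the promoter of UBE2N, another of its bound targets. Of 191 measured genes, 5 were higher (2.62%, against 1.48% of all genes) and 0 lower, and the list's median of -0.10 was close to the -0.03 of all genes. The 5 were AURKB, CDCA5, CIP2A, TMPO and FIRRM. CIP2A, an inhibitor of the phosphatase PP2A, read 134, 80.6 and 93.8 against 463, 416 and 482 (4.51-fold, log2 2.17, SE 0.28, adjusted p = 0.00182). FIRRM, a partner of the FIGNL1 ATPase, read 89.0, 66.9 and 69.1 against 225, 273 and 388 (3.87-fold, adjusted p = 0.0379) and was named after its values were seen. DKC1, the pseudouridine synthase dyskerin and a target the study examined, read 1647, 1575 and 1359 against 1994, 1812 and 1757 (log2 0.28, SE 0.29, adjusted p = 0.789).

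The arrays labelled ING2-WT gave the opposite direction for most of these genes. There 559 genes were called (4.89%), 221 higher (1.93%) and 338 lower (2.95%). Of the 169 genes higher on arrays labelled ING2-6K, 152 were called lower on those labelled ING2-WT, and of the 17 lower, 12 were called higher. The difference between the etoposide effects was tested directly and passed for 743 genes (6.49%), 440 with the higher effect under ING2-6K (3.85%) and 303 with the lower (2.65%). The number was 1236 without ING2-WT etoposide array 3. Of the 186 called genes 185 were among the 743. The called genes were chosen by the effect under ING2-6K, which is part of that difference, so this count is only a description. TOP2A changed by 4.79 on the log2 scale under ING2-6K and by -4.43 under ING2-WT, a difference of 9.22 (adjusted p = 4.11e-06). CDKN1A changed by -1.61 and 2.11, a difference of -3.73 (adjusted p = 0.000273), and MDM2 by -1.51 and 2.17 (difference -3.67, adjusted p = 0.00154).

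Levels in the 4 groups show which groups were alike for the called genes. TOP2A read 2256, 1937 and 3319 on arrays labelled ING2-6K with etoposide and 2035, 2425 and 3149 on those labelled ING2-WT with DMSO. It read 79.9, 67.1 and 127 on arrays labelled ING2-6K with DMSO and 75.7, 104 and 196 on those labelled ING2-WT with etoposide. For CDKN1A the last 2 groups read 16293, 14970 and 11504 and 15550, 14618 and 16638. Of the 186 genes, 183 had group means within 2-fold of each other between ING2-6K etoposide and ING2-WT DMSO, and 13 between ING2-6K etoposide and ING2-WT etoposide. For ING2-6K DMSO, 145 lay within 2-fold of ING2-WT etoposide and 4 within 2-fold of ING2-WT DMSO. These genes were chosen by the contrast under ING2-6K, so the counts are a description. The shares over all genes were not counted. For 72 of the genes called higher the ING2-6K DMSO arrays all lay under 64, so how close those means lie depends on the floor. For genes that separated on arrays 1 and 2 only, the difference did not pass. MT1E changed by 1.94 and -0.44 (difference 2.38, adjusted p = 0.177) and ING2 by 3.04 and -0.02 (difference 3.05, adjusted p = 0.351).

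**Figure D4:**
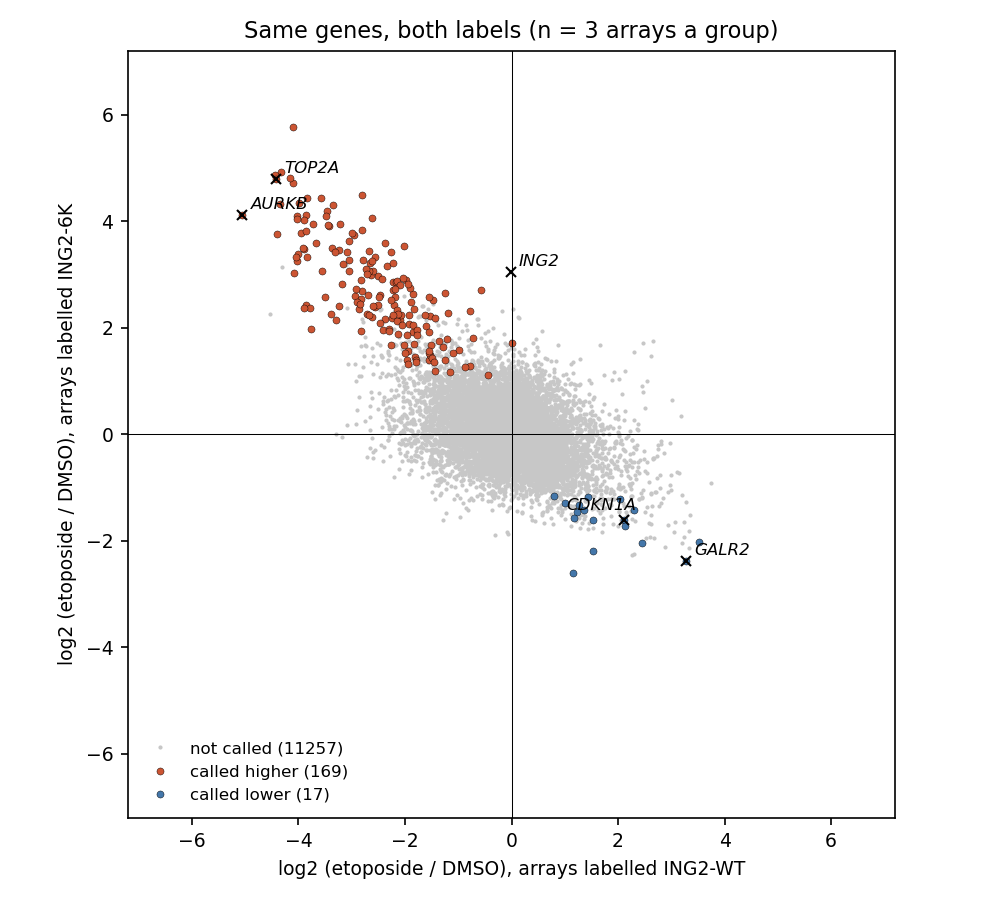
Log2 ratio of etoposide to DMSO for 11443 genes on arrays labelled ING2-6K (vertical) against that on arrays labelled ING2-WT (horizontal), n = 3 arrays a group. The 169 genes called higher under ING2-6K lie mostly to the left of 0 and the 17 called lower to the right, while ING2 lies above 0 near the vertical line.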

How the data were processed

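Illumina BeadArray values of 48797 probes on 12 arrays were used. Per the labels and the deposited table, the authors had turned scanner signal into background-subtracted intensity on a linear scale, scaled between arrays by a method not given in the sources used here. The other deposited column, of unit other, gave the gene symbol. Another 24 deposited columns with names that match no label were not used. Of the probes, 36101 carried 1 symbol, 4444 of which were updated through the RefSeq gene table, 12645 carried none, 50 a date and 1 several.

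Values were quantile-normalised, set to at least 16 and log2-transformed. Probes of 64 or more on at least 3 of 12 arrays were kept (15459), with the probe of highest mean for each gene (11443 genes). Of 138 genes considered for naming 36 had several probes, which differed in direction for 1. The choice of probe can change a gene's value. With every probe tested, a further probe of the called genes FEN1, SMC4, UHRF1, SLFN11 and ISCU kept the direction but did not pass. Probe sequences were not used here. On each array 26.8% to 30.3% of deposited probe values were 64 or more. Precision is limited by 3 arrays a group, with a standard error of 0.433 (median over genes) on the log2 change.

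The 12 arrays entered 1 limma model (version 3.58.1, R 4.3.3) holding a mean for each of the 4 groups. Contrasts were tested two-sided with moderated variances and Benjamini-Hochberg adjustment over all genes. The scripts were tested on simulated data. A fold is 2 to the power of the log2 change on the floored scale. Where all 3 arrays of a group lay under 64, a bound is given: the mean log2 of the brighter group minus the mean of the dimmer with each array set to at least 64. The adjusted p beside a bound is that of the fit with the floor of 16. Promoter windows are from RefSeq (GRCh38.p14).

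The members, the gene lists, the tests and the rule for naming genes were chosen with earlier results of these data known. Named genes were the 15 largest risers and all genes lower among the called with groups not overlapping, the 4 smallest adjusted p of each list, 12 fixed genes, the 10 with pair 3 farthest from pairs 1 and 2, and the 10 largest changes among genes moved in all pairs but not called. The text uses part of them. UHRF1, HMGB2, EZH2, SLFN11, DHRS2, CDC2, FAM83D, DTL and FIRRM fall outside the rule and were chosen after their values were seen. Alternatives covered scaling, floor, filter, probe, arrays fitted, replicate block, array weights, moderation, threshold and leaving out arrays.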

Additional observations from a re-analysis of the deposited data

Results flagged for a closer look

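Effects of etoposide that differed between arrays labelled ING2-6K and ING2-WT, by the test of the difference, are given here as values. Over all genes 743 passed, with the higher effect under ING2-6K for 3.85% and the lower for 2.65%, and the counts of small lists are to be read against those shares. In the cell cycle lists the effect was higher under ING2-6K for 20 of 21 entry kinases and cyclins, 4 of 4 members of the chromosomal passenger complex, 5 of 14 genes of the anaphase-promoting complex, 25 of 36 of the kinetochore, 25 of 26 of the spindle and 12 of 19 of condensin and cohesin. It was also higher for 15 of 24 helicase genes, 21 of 32 fork genes, 9 of 24 E2F and RB genes, 17 of 28 repair genes and 5 of 13 lamina genes. Of 43 p53 targets 16 differed, 15 with the lower effect under ING2-6K and 1 with the higher. The effect was lower for 7 of 17 histone genes, 7 of 40 interferon-stimulated genes, 4 of 26 immediate early genes, 3 of 20 NF-kB genes, 2 of 18 heat shock genes, 2 of 21 NRF2 genes, 2 of 32 phosphoinositide genes, 1 of 24 matrix proteases and inhibitors and 2 of 6 blood and endothelial markers. It was higher for 4 of 41 splicing factors, 2 of 15 BCL2 family genes, 1 of 24 cholesterol genes and 1 of 20 glycolysis genes, and split for 2 of 27 ATF4 genes and 2 of 21 YAP and TGF-beta targets. Among 191 genes with promoters bound by ING2, 15 differed, 12 higher and 3 lower, against 6.49% of all genes.

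Of single genes fixed in the naming rule, the log2 effect under ING2-6K minus that under ING2-WT was 9.22 for TOP2A, 9.16 for AURKB, 4.43 for CIP2A and 3.22 for SKP2. It was -3.73 for CDKN1A and -3.67 for MDM2.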

How the results depend on the processing

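No called gene named in the text changed direction under any alternative tried. Where every probe was tested, only the probe of the main fit was followed here, and another SLC25A20 probe went the other way (log2 1.03). The median over all genes, -0.03, was 0.04 with 75th percentile scaling, 0.03 with cyclic loess and 0.08 for values as deposited, and that of the BCL2 family, 0.02, was -0.15 with bounds. The 186 calls became 65 (56 higher, 9 lower) when only genes of 64 or more on all 12 arrays were tested, where 64 of the 186 were still tested and 62 of them called. They became 109 at an adjusted p under 0.01. With array weights they were 4539 (2311 higher, 2228 lower) and without all arrays numbered 3 4112 (2017 higher, 2095 lower). The lower calls were also 7 with the probe of largest variance, 11 with every probe tested and 32 with no moderation. The calls of the difference between labels were 4596 with array weights and 4095 without all arrays numbered 3. Leaving out 1 array gave 107 to 273 calls, 102 to 228 higher, 0 to 45 lower and 509 to 1236 for the difference. Beside the 0 lower calls, the unadjusted count in limma under 0.05 was 697 without DMSO array 1 and 866 without etoposide array 3, both directions together. The count of genes moved in all 3 pairs ranged from 288 to 402. The cause of these shifts was not tested. Of the values of named genes under settings other than leaving out 1 array, 1808 kept their side of the threshold, 118 lost and 203 gained a call. These settings include the one without all arrays numbered 3. Intensities under 64 limit what can be said of 72 genes called higher and 3 called lower to bounds.

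With the replicate number as a block over all 12 arrays, 348 genes were called (264 higher, 84 lower), 184 of the 186 among them, and 1738 for the difference. Over the 6 ING2-6K arrays alone the block gave 190, with 138 of the 186 among them. Correlations of the deviations from the group means ran from -0.04, for the ING2-6K arrays numbered 2, to 0.64 over the 18 same-numbered pairs across groups, and from 0.27 to 0.64 among arrays numbered 3. Not every pair was above 0.1, and the labels name nothing that same-numbered arrays share, so the numbers were not taken as pairs.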
